A study of Mus musculus with 5 samples.

Results

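The conjugation enzymes described here are the glutathione S-transferases (Gst classes a, k, m, o, p, t and z, and the membrane-bound Mgst), the UDP-glucuronosyltransferases (Ugt) and the cytosolic sulfotransferases (Sult) of the mouse. They were found by symbol, as every gene of the authors' gene table whose name begins with one of these prefixes followed by a digit, and made up 55 of 24562 genes with an identifier, with 82 probes on the array. The set holds 23 Gst and Mgst, 15 Ugt and 17 Sult genes. RNA of C57BL/6 mice was measured on 5 single-colour arrays: kidney isolated at E13.5 (a mid-gestation embryo), kidney at P0 (the day of birth), the adult kidney at 8 weeks, and kidney bud transplants taken 2 weeks and 4 weeks after grafting. Each group was 1 array, so no difference has a replicate check and no test was made. The labels name no transgene or treatment. No label used here states which cells made up the bud, where it was grafted or how many animals gave an array's RNA, so the transplant arrays may hold RNA of the host tissue around the graft.

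Conjugation is the step in which a cell couples a hormone, drug or waste product to a water-soluble group so that it can be carried out of the body. Glutathione S-transferases attach glutathione, UDP-glucuronosyltransferases attach a sugar acid and sulfotransferases attach sulfate, and export pumps then move the product into urine or bile. The liver and the proximal tubule of the kidney, the nephron segment that takes up and secretes organic anions, are known for high levels of many of these enzymes.

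Levels are given as the log2 ratio of processed spot intensity to the array's own 75th percentile, so 0 is the level of a spot at that percentile and 1 unit is a doubling of signal. A level may be compared between arrays for 1 gene, not between genes, since each probe has its own brightness. A probe that the scanner software did not call well above background on an array is said to be dim there. Where a gene was dim on 1 of the arrays compared, the difference is a bound and is written "at least". Genes were counted when they differed at least 4-fold. The median SD between repeated spots of a probe was 0.0563 to 0.0696 log2 units per array. This is spot error alone and leaves out labelling and animals, and only 2 of the 82 probes had 10 spots. Slide 1 held the E13.5 and 2-week transplant arrays and slide 2 the P0, 8-week and 4-week transplant arrays. Slide and group therefore cannot be told apart in any comparison across the slides. These are P0, 8 weeks or the 4-week transplant against E13.5, the transplants against each other, and the 2-week transplant against P0 or 8 weeks. The Y-linked Ddx3y was dim in the P0 kidney and Xist was dim in the 8-week kidney, so the sex of the animals cannot be told apart from the group, and several of these enzymes are known to differ between the sexes in mouse kidney and liver.

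Marker genes of other cell types differed strongly between the arrays and stand beside the results they touch. The median level of 12 proximal tubule markers was -4.64 at E13.5, 2.93 at P0 and 6.33 at 8 weeks, and 0.16 and -1.85 in the 2-week and 4-week transplants, and 5 of the 12 were dim at E13.5. Adipocyte markers were above background on both transplant arrays for all 8 genes, with medians of 3.37 and 5.12, against medians of -6.55 to -5.30 in the kidneys. Macrophage markers had medians of 2.59 and 2.23 in the transplants and -2.25 to -1.32 in the kidneys. Adrenal cortex markers had a median of 4.47 in the 4-week transplant and -6.15 to -4.62 on the other arrays, where Cyp11a1 and Cyp11b1 were dim. Urothelium markers had a median of 2.55 in the 4-week transplant and -5.43 to -1.13 elsewhere. Of 10 hepatocyte markers, 4 were above background at E13.5 and at P0 and 5 on each of the other 3 arrays. Alb, Apoa1, Apob and Cps1 were dim in both transplants, whereas Ttr stood at 7.86 and Hamp at -2.08 in the 4-week transplant, against -0.52 and a dim signal in the 2-week transplant and -3.40 and a dim signal at 8 weeks. In the 4-week transplant 3 of 7 hepatocyte markers compared were at least 4-fold higher than at 8 weeks and 2 lower. All 5 brown fat markers were above background in both transplants, with levels of -0.52 to 5.27 at 2 weeks and from -0.44 upwards at 4 weeks. Their medians were -5.32 to -3.85 in the kidneys, where Ucp1 was dim, and 5.76 in the 4-week transplant. All 8 glia markers were above background in both transplants, with medians of 0.02 and -2.41 against -4.57 to -3.58 in the kidneys, where Gfap and Olig1 were dim. The part of these cell types in the enzymes' levels was not tested. In RNA of whole tissue, fewer cells of a type and less RNA per cell cannot be told apart.

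Of the 55 enzymes, 25 were well above background on all 5 arrays, 18 on some and 12 on none. The 12 were Gstt4, Ugt2a1, Ugt2b1, Sult1c1, Sult3a1, Sult6b1 and 6 Sult2a genes, the hydroxysteroid sulfotransferases. The number above background was 30 at E13.5, 40 at P0 and 39 at 8 weeks, and 40 and 38 in the 2-week and 4-week transplants. Among the 43 enzymes measured on at least 1 array, 26 (60.5%) were highest in the 8-week kidney, against 31.1% of all genes measured. The 4-week transplant was highest for 11 (25.6%, against 16% of all genes), the 2-week transplant for 3, the P0 kidney for 2 and the E13.5 kidney for 1, the estrogen sulfotransferase Sult1e1. The families differed in where they peaked. All 13 measured Ugt genes were highest at 8 weeks. Of these, Ugt2a3 and Ugt2b35 were above background on that array only, so they had to be highest there. Ugt1a6a stood at -4.31 at 8 weeks and nearly as high, at -4.44, in the 4-week transplant. The 4-week transplant was highest for Gsta4, Gstm2, Gstm3, Gstm4, Gstm7, Gsto1, Gsto2, Mgst1, Mgst2, Sult1a1 and Sult4a1, of which Gstm4 was highest at 8 weeks on its other probe.

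**Figure D1:**
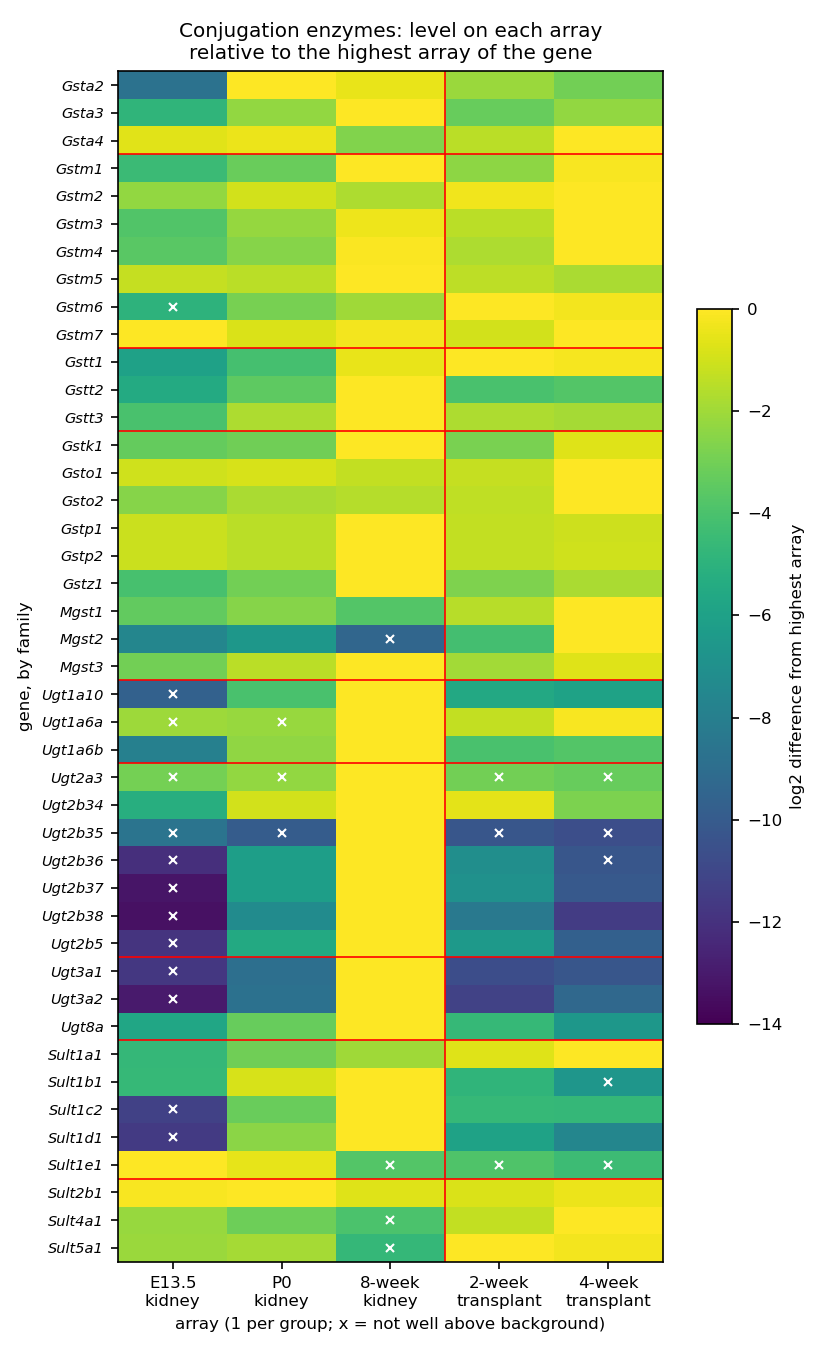
Colour gives the log2 difference of each enzyme (rows, grouped by family) from its own highest array, for the 43 enzymes well above background on at least 1 of the 5 arrays (columns, 1 array per group); a white cross marks an array on which the gene was dim. All 13 Ugt rows are brightest at 8 weeks (Ugt2a3 and Ugt2b35 were dim on every other array), whereas Mgst2, Sult4a1 and Mgst1 are brightest in the 4-week transplant.

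Between the kidneys, conjugation enzymes were mostly higher at the later age. At P0 against E13.5, 16 of 40 enzymes compared were at least 4-fold higher (6.23% of all genes compared) and 0 were at least 4-fold lower (1.83%), and 9 of the 16 were bounds because the gene was dim at E13.5. This count depends on how background is corrected: normexp without negative controls left 6 higher and 2 lower and turned Sult1b1 to -0.07 and Ugt8a to -0.77. That fit put the mean background at -992 for E13.5 and at 20.7 to 27.5 for the other arrays. Normexp with negative controls kept the median enzyme 1.38 log2 units higher. It reversed 0 of the differences of enzymes described in full. At 8 weeks against P0, 19 of 43 were at least 4-fold higher (8.93% of all genes) and 3 lower (9.35%). The median enzyme was 1.54 and 1.71 log2 units higher in these comparisons, where the median over all genes was -0.12 and 0.07. Over the whole span from E13.5 to 8 weeks, 27 of 43 were higher (14.1% of all genes) and 2 lower (12.6%), with a median of 3.50. These counts hold bounds, which could only go in the direction counted. Among the higher they are Gstm6, Sult1c2, Sult1d1, Ugt1a10, Ugt2b5, Ugt2b35, Ugt2b36, Ugt2b37, Ugt2b38, Ugt3a1 and Ugt3a2, all dim at E13.5. Among the lower it is Sult5a1, dim at 8 weeks. All 12 proximal tubule markers were at least 4-fold higher at P0 than at E13.5 and at 8 weeks than at P0, with medians of 6.80 and 3.77. Their part in the enzymes' differences was not tested.

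The transplants shared part of this. The 2-week transplant had 18 of 41 enzymes at least 4-fold above the E13.5 kidney (11.3% of all genes) and 1 below (5.42%). Normexp without negative controls changed this to 8 above and 3 below. The 4-week transplant had 10 of 41 at least 4-fold above the P0 kidney (8.65%) and 8 below (4.35%), so its enzymes lay on both sides of the newborn level. Against the 8-week kidney, 5 of 42 were higher in the 4-week transplant (11.7%) and 17 lower (7.8%), with a median of -1.43. Between the transplants, 3 of 40 were at least 4-fold higher at 4 weeks (2.44%) and 5 lower (1.02%). At a 2-fold threshold 26 of 40 enzymes stood higher at P0 than in the E13.5 kidney (13.9% of all genes), 5 of 43 lower at 8 weeks than at P0 (20.9%), 14 of 41 lower in the 4-week transplant than at P0 (13.9%), 10 of 42 higher in it than at 8 weeks (22.3%) and 13 of 40 higher in it than in the 2-week transplant (9.09%). Comparisons that use the same array share its error.

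The Ugt2 genes encode glucuronosyltransferases for steroids, bile acids and drugs. RefSeq (GRCm38.p6) places 9 of them in a row on chromosome 5, in the order Ugt2b34, Ugt2b1, Ugt2b35, Ugt2b36, Ugt2b5, Ugt2b37, Ugt2a3, Ugt2b38 and Ugt2a1. Of these, Ugt2b1 and Ugt2a1 were dim on every array. Ugt2b5, Ugt2b36, Ugt2b37 and Ugt2b38 moved together over the 5 arrays, while their neighbours Ugt2b35 and Ugt2b34 did not follow them throughout, so the 250 bases before the start of each of these 6 genes are shown, 5′ to 3′ on the gene's strand. Capitals mark the longest run of letters that the windows of Ugt2b5, Ugt2b36, Ugt2b37 and Ugt2b38 share, 22 bases long. All windows are from RefSeq on GRCm38.p6: chr5:87092556-87092805 for Ugt2b36, chr5:87140341-87140590 for Ugt2b5, chr5:87254789-87255038 for Ugt2b37, chr5:87424204-87424453 for Ugt2b38, chr5:87000610-87000859 for Ugt2b35 and chr5:86906938-86907187 for Ugt2b34. Ugt2b35 lies on the plus strand and the other 5 on the minus strand.
Ugt2b36: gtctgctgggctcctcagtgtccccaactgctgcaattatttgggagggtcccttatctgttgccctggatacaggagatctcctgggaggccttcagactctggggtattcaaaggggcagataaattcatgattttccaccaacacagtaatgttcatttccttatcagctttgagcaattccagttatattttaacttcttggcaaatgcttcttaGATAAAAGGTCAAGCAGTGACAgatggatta
Ugt2b5: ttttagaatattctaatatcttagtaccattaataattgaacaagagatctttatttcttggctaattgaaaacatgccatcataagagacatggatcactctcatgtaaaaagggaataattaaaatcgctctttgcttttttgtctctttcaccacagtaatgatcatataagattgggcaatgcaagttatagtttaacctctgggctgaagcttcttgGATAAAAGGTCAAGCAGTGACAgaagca
Ugt2b37: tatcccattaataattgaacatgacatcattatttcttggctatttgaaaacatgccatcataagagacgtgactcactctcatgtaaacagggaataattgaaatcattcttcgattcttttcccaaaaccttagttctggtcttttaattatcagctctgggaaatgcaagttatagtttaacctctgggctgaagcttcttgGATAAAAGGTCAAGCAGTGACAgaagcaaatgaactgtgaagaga
Ugt2b38: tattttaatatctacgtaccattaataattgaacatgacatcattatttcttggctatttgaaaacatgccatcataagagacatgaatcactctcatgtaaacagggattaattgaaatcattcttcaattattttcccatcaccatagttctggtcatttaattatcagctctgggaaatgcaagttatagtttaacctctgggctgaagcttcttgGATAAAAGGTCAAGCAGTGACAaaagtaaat
Ugt2b35: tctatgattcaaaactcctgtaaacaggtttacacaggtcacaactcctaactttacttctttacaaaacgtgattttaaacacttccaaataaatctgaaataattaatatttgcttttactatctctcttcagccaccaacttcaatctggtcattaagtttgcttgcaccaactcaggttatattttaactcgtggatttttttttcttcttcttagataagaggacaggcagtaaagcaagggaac
Ugt2b34: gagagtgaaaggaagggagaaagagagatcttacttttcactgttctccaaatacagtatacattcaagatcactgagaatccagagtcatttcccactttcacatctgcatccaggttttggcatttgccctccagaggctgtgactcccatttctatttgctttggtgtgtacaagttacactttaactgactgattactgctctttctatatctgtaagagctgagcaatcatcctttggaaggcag

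The shared run begins 28 to 45 bases before the start of the 4 genes. Among 32851 RefSeq promoter windows of the mouse it occurs in 4, those of these 4 genes. Ugt2b5, Ugt2b37 and Ugt2b38 share a longer run of 62 bases that contains it. Over the aligned 250 bases, Ugt2b37 and Ugt2b38 were identical at 89.6% of positions, Ugt2b5 and Ugt2b38 at 84.8% and Ugt2b5 and Ugt2b37 at 79.6%. Ugt2b36 matched these 3 at 62.8% to 64% of positions, Ugt2b35 at 56.8% to 60.8% and Ugt2b34 at 52.8% to 54.4%. The letters describe the windows and are no evidence of a binding site. Genes this alike may also share signal on a probe, which was not tested.

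Ugt2b38 was dim at E13.5 (-6.52), stood at -0.41 at P0 and 6.84 at 8 weeks, and at -1.48 and -4.69 in the 2-week and 4-week transplants. Its P0 level was at least 44.8-fold above E13.5 and its 8-week level 153-fold above P0. Ugt2b37 was dim at E13.5 (-8.14) and stood at -1.07, 5.08, -1.82 and -5.00 on the same later arrays in the same order. For both genes the adult kidney was far above the rest, the newborn kidney and the 2-week transplant lay close together, and the 4-week transplant was the lowest array with signal. Ugt2b5 had levels of -0.99 at P0, 4.50 at 8 weeks, -1.99 in the 2-week and -5.22 in the 4-week transplant, and was dim at E13.5 (-7.37). Ugt2b36 had levels of -2.19, 3.95 and -3.13 at P0, 8 weeks and in the 2-week transplant, and was dim both at E13.5 (-8.16) and in the 4-week transplant (-6.32). Over the arrays with signal these 4 genes thus had the same order.

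Between the transplants all 5 Ugt2 genes that could be compared were at least 4-fold lower at 4 weeks. Ugt2b5 was 9.35-fold lower, Ugt2b38 9.26-fold, Ugt2b37 9.05-fold, Ugt2b36 at least 7.26-fold and Ugt2b34 4.51-fold. Normexp correction kept all 5 lower but left 3 of them past 4-fold, with Ugt2b34 at -1.90 and Ugt2b36 at -1.43. Over the same pair of arrays 4 of 12 proximal tubule markers were at least 4-fold lower, with a median of -0.95. Slc34a1, a phosphate transporter of the proximal tubule, went from 0.48 to -2.22, whereas the water channel Aqp1 stood at 4.14 and 4.79. The share of the Ugt2 differences that goes with the tubule was not tested. Against the P0 kidney, Ugt2b5, Ugt2b36, Ugt2b37 and Ugt2b38 were 0.76 to 1.07 log2 units lower in the 2-week transplant and 14.0-fold (at least, Ugt2b36) to 19.4-fold lower in the 4-week transplant, where 9 of 12 tubule markers were at least 4-fold lower, with a median of -3.94. Against the 8-week kidney, 6 of 7 Ugt2 genes were at least 4-fold lower in the 4-week transplant, up to 2960-fold for Ugt2b38, and the 12 tubule markers were all lower, with a median of -7.34.

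Ugt2b34 and Ugt2b35 had other profiles. Ugt2b34 had levels of -5.13 at E13.5, -0.88 at P0 and 0.09 at 8 weeks, and of -0.50 and -2.67 in the transplants, and was above background on all 5 arrays. Its 8-week level was only 0.97 log2 units above P0, where the group of 4 was 45.0-fold to 153-fold higher. Ugt2b35 was dim on every array but the 8-week kidney, where it stood at 2.46, at least 356-fold above P0. Its other probe was dim on all 5 arrays, including 8 weeks (-7.41). Ugt2a3 was likewise seen only at 8 weeks, at -4.21.

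**Figure D2:**
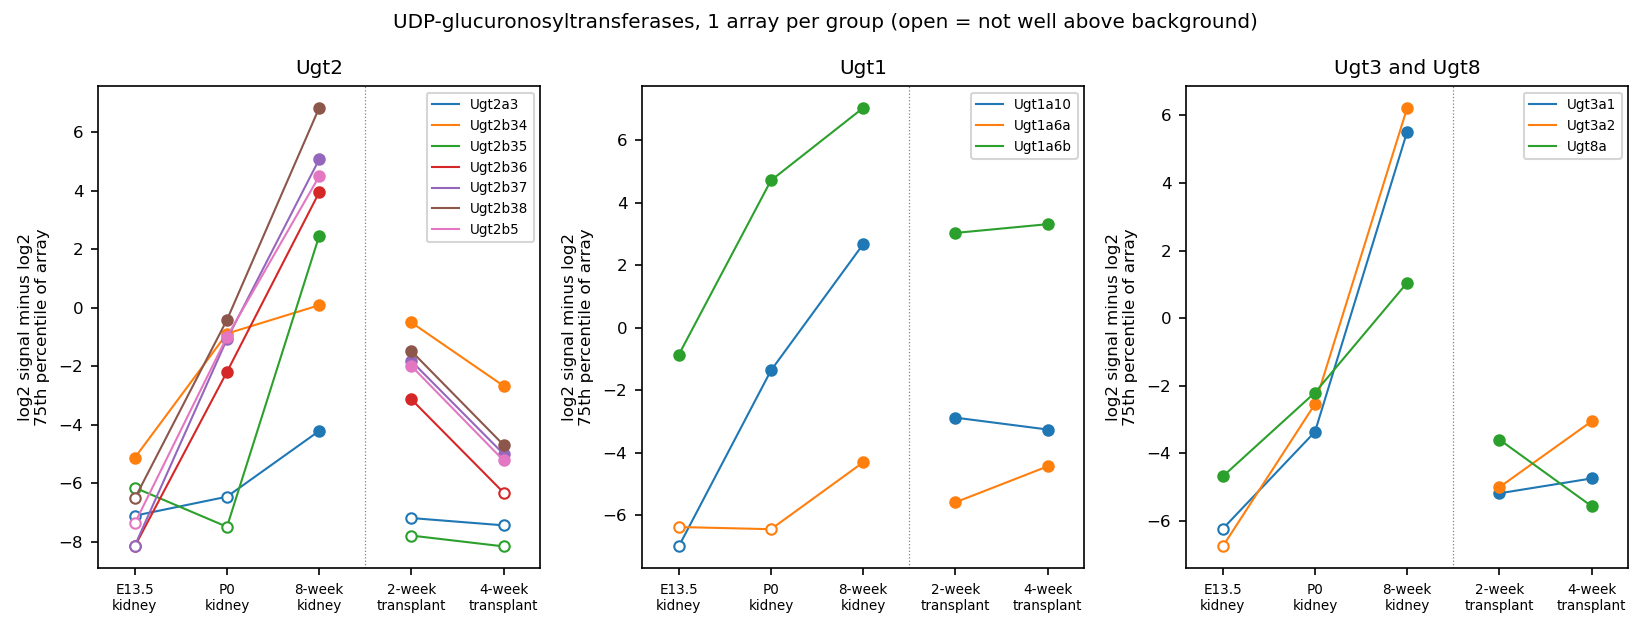
Level of each measured UDP-glucuronosyltransferase (log2 signal relative to the 75th percentile of its array) on the 3 kidney and 2 transplant arrays, 1 array per point; open points were not well above background, and lines join arrays of 1 kind only to guide the eye. Ugt2b5, Ugt2b36, Ugt2b37 and Ugt2b38 run together and are lower at 4 than at 2 weeks after transplantation, while Ugt3a1 and Ugt3a2 stand at 5.52 and 6.22 at 8 weeks and below -2 on every other array.

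Ugt3a1 and Ugt3a2 belong to a small family that uses UDP sugars other than UDP-glucuronate, and lie side by side on chromosome 15. Ugt3a2 was dim at E13.5 (-6.75) and stood at -2.54 at P0, 6.22 at 8 weeks, and -5.00 and -3.05 in the 2-week and 4-week transplants. Ugt3a1 was dim at E13.5 (-6.23) and stood at -3.36, 5.52, -5.18 and -4.74. Both had their steep step after birth: the 8-week level was 471-fold (Ugt3a1) and 434-fold (Ugt3a2) above P0, the P0 level at least 5.79-fold and 10.2-fold above E13.5. For both genes each transplant lay below the newborn level, and the 4-week transplant was 1227-fold and 619-fold below the 8-week kidney. Unlike the Ugt2 genes, neither was lower at 4 than at 2 weeks: Ugt3a2 was 1.95 and Ugt3a1 0.44 log2 units higher. Ugt8a, which makes the galactosylceramide of myelin and of kidney membranes, had levels of -4.68, -2.20 and 1.05 in the kidneys and -3.59 and -5.56 in the transplants. Ugt8a was 9.49-fold higher at 8 weeks than at P0 and 10.3-fold lower in the 4-week transplant than at P0.

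The Ugt1 genes share their last exons and differ in the first, and act on bilirubin, phenols and many drugs. Ugt1a10 was dim at E13.5 (-7.00), at -1.37 at P0 and 2.67 at 8 weeks, and at -2.88 and -3.26 in the transplants. Both transplants thus lay below the newborn level, and the 4-week transplant was 61.0-fold below the 8-week kidney. Ugt1a6b, a phenol glucuronosyltransferase, read -0.87, 4.71 and 7.03 in the kidneys and 3.03 and 3.31 in the transplants on its brighter probe. Its other probe read -5.84 at P0 and -1.81 in the 4-week transplant, so the difference of the 4-week transplant from P0 was -1.40 on one probe and 4.03 on the other and has no settled direction. Both probes carry the accession of the near-identical Ugt1a6a, and their signals cannot be told apart. The probe listed for Ugt1a6a carries the same accession. It was dim at E13.5 and P0 and read -4.31 at 8 weeks, -5.59 in the 2-week and -4.44 in the 4-week transplant. The level of Ugt1a6a is therefore not settled by this probe.

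Of the 15 Ugt genes, 10 could be compared between P0 and E13.5, and the other 5 were dim on both arrays. All 10 were at least 4-fold higher at P0, but 7 of them are bounds and entered only through their P0 signal, so they had to stand higher there. Ugt8a, 1 of the 3 measured on both arrays, was -0.77 after normexp background correction without negative controls. At 8 weeks against P0, 10 of 13 were at least 4-fold higher. In the 2-week transplant 7 of 11 were at least 4-fold above the E13.5 kidney. In the 4-week transplant 11 of 13 were at least 4-fold below the 8-week kidney and none above. These counts also hold bounds, which could only go in the direction counted. They are Ugt2b35 at 8 weeks against P0, and Ugt1a10, Ugt2b5, Ugt2b36, Ugt2b37 and Ugt2b38 in the 2-week transplant against E13.5. In the 4-week transplant against 8 weeks they are Ugt2b35 and Ugt2b36. The corresponding shares of all genes are those given above for each comparison.

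Sulfotransferases of the Sult1 family, which act on phenols, catecholamines and hormones, split into genes that followed the adult kidney and genes that did not. Sult1d1, a sulfotransferase of catecholamines, was dim at E13.5 (-7.79) and stood at 1.38 at P0, 3.84 at 8 weeks, -2.07 in the 2-week and -3.75 in the 4-week transplant. Sult1c2 was dim at E13.5 (-6.89) and stood at 1.23, 4.43, -0.18 and -0.24. Both were over 100-fold higher at birth than at E13.5, at least 155-fold for Sult1d1 and at least 139.8-fold for Sult1c2, and both transplants lay between the embryonic and the newborn level. Sult1d1 was 35.0-fold lower in the 4-week transplant than at P0, and Sult1c2 1.48 log2 units lower. Sult1b1, which acts on thyroid hormone, had levels of -5.07, -1.31 and -0.47 in the kidneys, was at -5.30 in the 2-week transplant and dim in the 4-week transplant (-7.14). It was the only enzyme whose level on both transplant arrays lay below the lowest kidney, 1 of 26 measurable (20.2% of all genes measurable this way).

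Sult1a1, the main phenol sulfotransferase, had another order. Its levels were -1.94, -0.28 and 0.76 in the kidneys and 2.06 and 2.74 in the 2-week and 4-week transplants. Both transplants stood above every kidney, and the 4-week transplant was 8.15-fold above P0. Sult1e1, which inactivates estrogens, was seen only in the 2 youngest kidneys, at -3.45 at E13.5 and -3.99 at P0, and was dim at 8 weeks (-7.22) and in both transplants (-7.32 and -7.85).

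Of the 11 genes of Sult2 to Sult7, 8 were dim on every array. Sult2b1, a cholesterol sulfotransferase, was nearly level, between -3.46 and -2.69 on the 5 arrays. Sult5a1 had levels of -2.49 at E13.5 and -2.24 at P0, was dim at 8 weeks (-5.03) and stood at -0.37 and -0.60 in the transplants. Sult4a1, known chiefly from the brain, had levels of -3.48 and -4.42 at E13.5 and P0, was dim at 8 weeks (-5.29), and stood at -2.59 and -1.32. Of 8 glia markers, 5 were at least 4-fold higher in the 2-week transplant than at P0 (6.85% of all genes) and 4 than at 8 weeks (11.8%). In the 4-week transplant 4 were higher than at P0 (8.65%) and 4 than at 8 weeks (11.7%). Gfap, S100b and Olig1 were among them each time. Between the transplants the glia markers went another way than Sult4a1, which was 1.26 log2 units higher at 4 weeks. Gfap and Sox10 were at least 4-fold lower there, none was higher, and the median was -0.54. The part of glia in the level of Sult4a1 was not tested. On their brightest probes Sult5a1 and Sult4a1 were therefore lowest in the adult kidney and highest in a transplant. In the 4-week transplant Sult5a1 was at least 21.4-fold and Sult4a1 at least 15.7-fold above the 8-week kidney. A dimmer probe of Sult5a1 gave 0.40 in place of 1.89 for the 4-week transplant against E13.5. That probe was above background at E13.5 (-5.11) and dim in the 2-week transplant (-6.31), so on it the 2-week transplant did not stand above every kidney. It read -4.70 in the 4-week transplant and was dim at 8 weeks (-7.57), where the lowest level well above background was -5.38. The bound on this probe is thus far smaller than 21.4-fold. The other probes of Sult4a1 were above background only in the 4-week transplant, and read -7.48 and -7.63 in the 2-week transplant. In the 4-week transplant they read -5.50 and -4.28, and at 8 weeks they were dim at -5.14 and -7.61. The first of these probes thus gave no excess over the 8-week kidney.

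**Figure D3:**
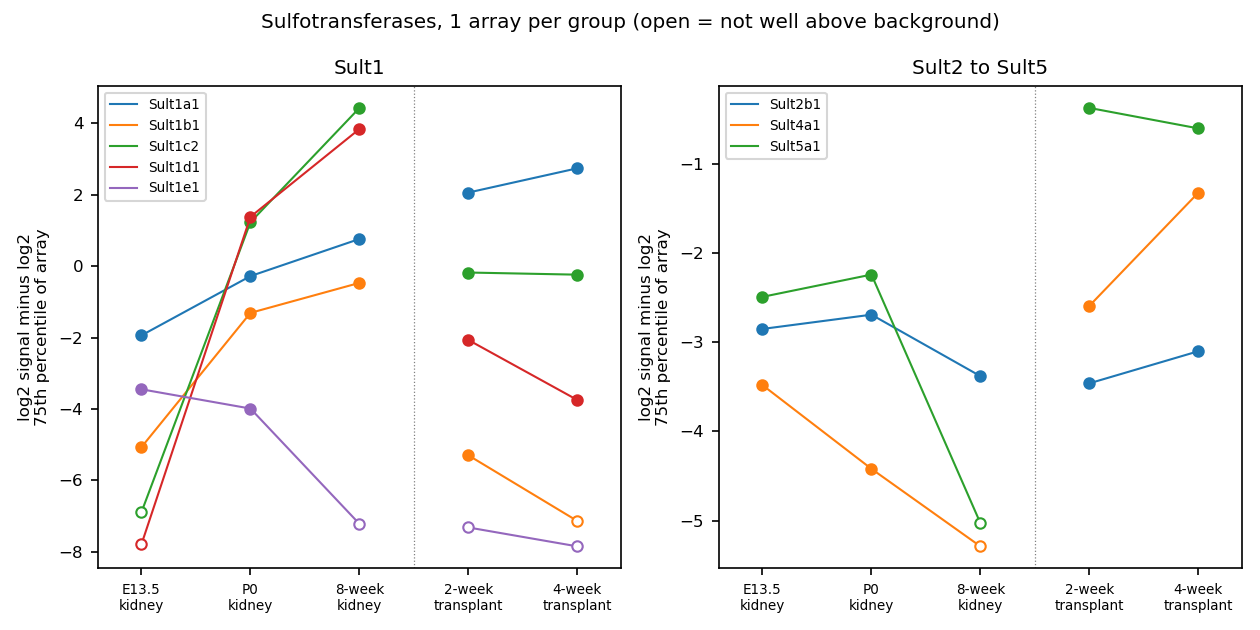
Level of each measured sulfotransferase (log2 signal relative to the 75th percentile of its array) on the 3 kidney and 2 transplant arrays, 1 array per point, with open points where the gene was not well above background. Sult1c2 and Sult1d1 climb to 4.43 and 3.84 at 8 weeks and are below 0 in both transplants. Sult1a1, Sult4a1 and Sult5a1 are higher in both transplants than in any kidney on the probe shown, the brightest of each gene.

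The alpha-class glutathione S-transferases detoxify electrophiles and products of lipid peroxidation. Gsta2 had the largest step from E13.5 to P0 among the enzymes above background on both arrays. Sult1d1 and Sult1c2 have only bounds there, at least 155-fold and at least 139.8-fold, and cannot be ranked against it. The E13.5 level of Gsta2 lay near the lowest level well above background on that array (-5.90). Gsta2 stood at -5.17 at E13.5, 3.56 at P0 and 3.11 at 8 weeks, and at 1.48 and 0.57 in the transplants. It was 423-fold higher at P0 than at E13.5, did not differ by 2-fold between P0 and 8 weeks, and was 7.91-fold lower in the 4-week transplant than at P0. Gsta3 stood at -1.13, 1.46 and 3.72 in the kidneys and 0.48 and 1.43 in the transplants, with both steps between kidneys above 4-fold (6.02-fold and 4.78-fold). Gsta4, which acts on 4-hydroxynonenal, ran the other way: its levels were 0.89, 1.09 and -1.15 in the kidneys and 0.07 and 1.52 in the transplants. The adult kidney was its lowest array, 4.71-fold below P0 and 6.36-fold below the 4-week transplant.

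The mu-class genes lie 7 in a row on chromosome 3, and none of the 6 above background on both arrays was at least 4-fold apart between P0 and E13.5. For the other, Gstm6, the bound was at least 2.39-fold higher at P0, which leaves the size of its difference unknown. Gstm1, an abundant mu-class enzyme of liver and kidney, had levels of 1.05 at E13.5, 2.31 at P0 and 5.51 at 8 weeks, and of 3.15 and 5.39 in the transplants. The 4-week transplant thus came within 0.11 log2 units of the adult kidney and was 4.75-fold above the 2-week transplant and 8.50-fold above P0. Gstm3 had levels of -1.42, 0.12 and 1.99 in the kidneys and 0.93 and 2.36 in the transplants, the same order apart from a 4-week transplant slightly above the adult. Gstm4 read -2.57, -1.52, 0.93, -0.73 and 1.02 over E13.5, P0, 8 weeks and the 2-week and 4-week transplants on its brighter probe, and its other probe gave smaller differences, 0.63 in place of 2.53 for the 4-week transplant against P0. That probe was highest at 8 weeks (-0.63, against -1.10 in the 4-week transplant), where the brighter probe had the 4-week transplant 0.09 above the adult. Gstm6 was dim at E13.5 (-6.73), at -4.64 and -3.81 in the later kidneys and at -1.79 and -2.04 in the transplants, so both transplants stood above every kidney. Gstm2 also had both transplants on top (4.27 and 4.59, against 2.32 to 3.61 in the kidneys). Gstm5, with levels between 2.22 and 3.98, and Gstm7, between -3.15 and -2.18, stayed within 4-fold on all 5 arrays. In all, 4 of 7 mu-class genes were at least 4-fold higher in the 4-week transplant than at P0 (8.65% of all genes), or 3 with the other probe of Gstm4, and none was 4-fold apart from the 8-week kidney. Members of this row are close in sequence, and cross-signal between their probes was not tested.

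The theta-class genes, which act on small halogenated compounds, lie 4 in a row on chromosome 10, and Gstt4 was dim throughout. Gstt1 had levels of -2.55, -0.72 and 2.96 in the kidneys and 3.43 and 3.24 in the transplants. Both transplants thus held Gstt1 at the adult level, 15.6-fold above P0 in the 4-week transplant. Gstt2 had levels of -1.15, 0.80 and 4.29 in the kidneys and 0.28 and 0.55 in the transplants, and the 4-week transplant was 13.4-fold below the adult. Gstt3 had levels of -0.18, 2.14 and 3.85 in the kidneys and 2.11 and 1.96 in the transplants. These 3 neighbours shared their order in the kidneys, and in the transplants Gstt1 stood at the adult level while Gstt2 and Gstt3 stood within 2-fold of the newborn level.

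The remaining classes covered small steps and the largest single difference among the glutathione enzymes. Mgst2, a membrane enzyme that conjugates glutathione and takes part in leukotriene synthesis, had levels of -3.28 at E13.5 and -2.29 at P0, was dim at 8 weeks (-5.09), and stood at 0.10 in the 2-week and 4.31 in the 4-week transplant. It was 18.5-fold higher in the 4-week than in the 2-week transplant, 97.0-fold above P0 and at least 678-fold above the 8-week kidney. Mgst2 was the only enzyme at least 4-fold above the highest kidney in both transplants, 1 of 38 measurable (2.66% of all genes measurable this way). Mgst1, the main membrane-bound form, had levels of 2.10, 2.95 and 1.76 in the kidneys and 3.96 and 5.48 in the transplants. Between the same transplants the adrenal cortex markers were all at least 4-fold higher at 4 weeks (7 of 7, median 10.17), as were the urothelium markers (6 of 6, median 6.14), and the adipocyte markers were high in both. Their part in the levels of Mgst1 and Mgst2 was not tested.

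Gstz1, the maleylacetoacetate isomerase of tyrosine breakdown, had levels of 1.53, 2.62 and 5.60 in the kidneys and 2.89 and 3.80 in the transplants, with the adult 7.90-fold above P0. Gstk1, a mitochondrial and peroxisomal enzyme, had levels of 0.99, 1.25 and 4.29 in the kidneys and 1.49 and 3.58 in the transplants. Gstk1 was 8.21-fold higher at 8 weeks than at P0 and 4.26-fold higher in the 4-week than in the 2-week transplant. The pi-class genes Gstp1 and Gstp2 lie side by side on chromosome 19 and had nearly the same differences between arrays (1.45 and 1.44 at 8 weeks against P0), and their signals cannot be told apart. Gsto1, an omega-class enzyme that reduces dehydroascorbate, ranged from 2.75 to 4.05, and Gsto2 from -3.46 to -0.93 with both transplants above every kidney. Mgst3 ranged from -0.25 at E13.5 to 2.73 at 8 weeks.

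**Figure D4:**
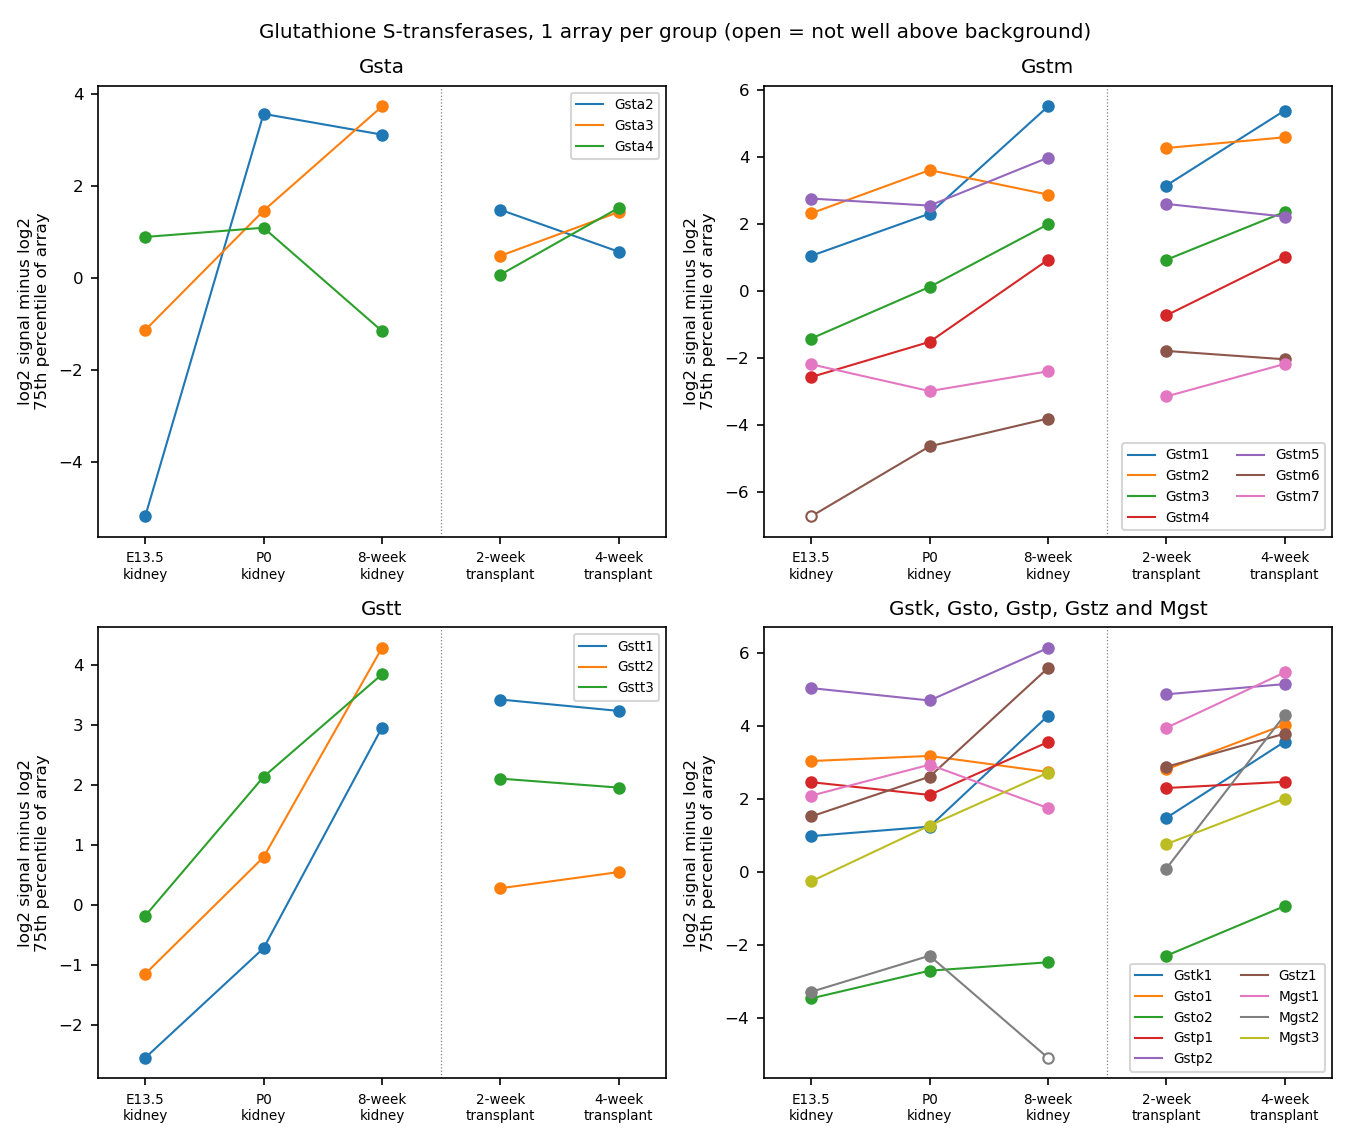
Level of each measured glutathione S-transferase (log2 signal relative to the 75th percentile of its array) on the 3 kidney and 2 transplant arrays, in 4 panels by class, 1 array per point, with open points where the gene was not well above background. Gsta2 goes from -5.17 at E13.5 to 3.56 at P0, Gstt1 stands at 3.43 and 3.24 in the transplants against 2.96 at 8 weeks, and Mgst2 is dim at 8 weeks and at 4.31 in the 4-week transplant.

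The classes are set side by side here for the 4-week transplant, and the difference between them was not tested. Against P0 the shares for all genes were 8.65% higher and 4.35% lower. Of 22 Gst and Mgst genes compared, 8 were at least 4-fold higher in the 4-week transplant and 1, Gsta2, was lower, with a median of 0.92. Of 11 Ugt genes none was higher and 5 were lower, with a median of -1.89, and of 8 Sult genes 2 were higher and 2 lower, with a median of -0.95. Against the 8-week kidney the medians were -0.01 for Gst and Mgst, -8.45 for Ugt and 0.28 for Sult. The Sult median stands for a split class: past 4-fold, 3 of 7 Sult lay below the adult level and 2 above it. Gst and Mgst had 3 of 22 on each side, and Ugt had 11 of 13 below and 0 above. Some of these differences are bounds. Both transplants lay above the highest kidney, by any amount, for Gstm2, Gstm6, Gsto2, Gstt1, Mgst1, Mgst2, Sult1a1, Sult4a1 and Sult5a1, which is 9 of 38 measurable enzymes (23.7%, against 17% of all genes). At 2-fold the 5 left were Gstm6, Mgst1, Mgst2, Sult1a1 and Sult5a1 (13.2%, against 6.16%). Sult4a1 and Sult5a1 are listed on their brightest probes only, since their other probes were dim in the 2-week transplant. None of the 9 is a Ugt.

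**Figure D5:**
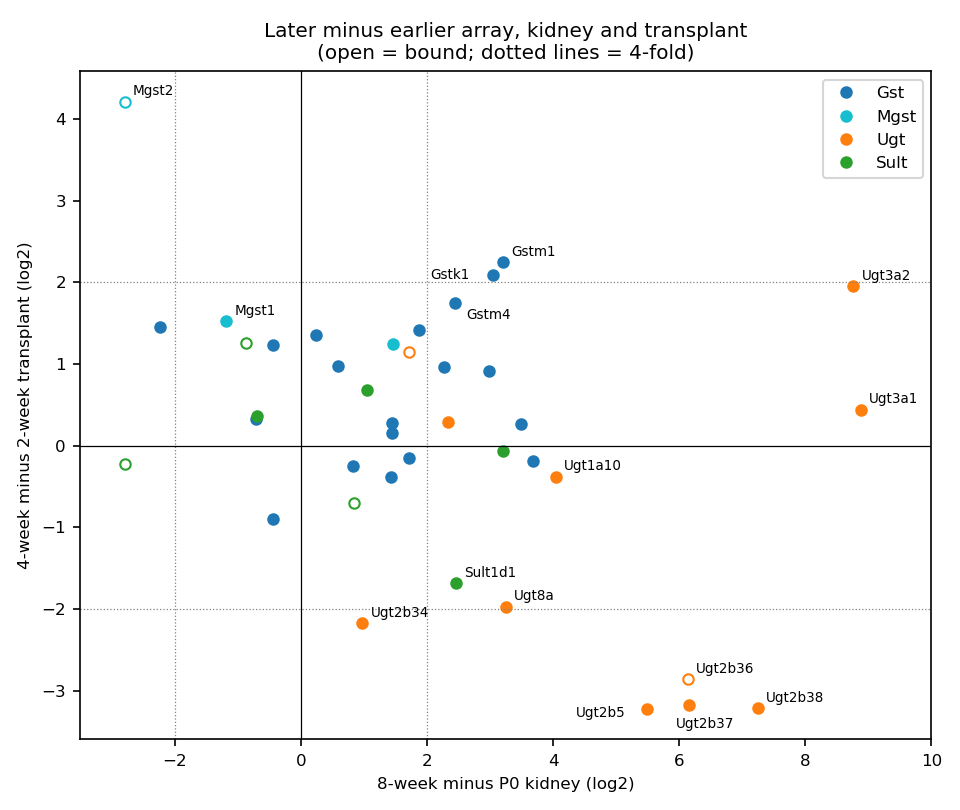
Each point is 1 enzyme, placed by its log2 difference between the 8-week and P0 kidneys (horizontal axis) and between the 4-week and 2-week transplants (vertical axis), 4 different arrays; colours give the family, open points are bounds and dotted lines mark 4-fold. Ugt2b5, Ugt2b36, Ugt2b37 and Ugt2b38 lie at the lower right, from 5.49 to 7.25 across and -3.22 to -2.86 down, and Mgst2 lies alone at the upper left.

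The genes that supply and finish conjugation are given by 8 lists of other genes of these pathways, named with their counts. Of all genes compared, 8.93% were at least 4-fold higher at 8 weeks than at P0. In the 4-week transplant against 8 weeks, 7.8% of all genes were lower and 11.7% higher. The lists are short, and their counts were not tested against these shares. Of 9 genes of glutathione synthesis and recycling, 6 were at least 4-fold higher at 8 weeks than at P0 and 6 were lower in the 4-week transplant than at 8 weeks. Gclc, the catalytic subunit of the rate-limiting enzyme, had levels of 0.56, 1.90 and 4.03 in the kidneys and 1.29 and 1.62 in the transplants, and Gss, glutathione synthetase, of -1.21, 0.95 and 4.01 and of -0.70 and -0.28. For these 2 genes both transplants stood below the newborn level. Of 10 genes that turn glutathione conjugates into mercapturates for excretion, 8 were at least 4-fold higher at 8 weeks than at P0 and 9 were lower in the 4-week transplant than at 8 weeks. Ggt1, the brush-border enzyme that takes the first step, had levels of -4.30, 1.96 and 5.16 in the kidneys and -2.48 and -3.02 in the transplants.

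Of 7 genes for the supply of UDP-glucuronate, 2 were at least 4-fold higher at 8 weeks than at P0 (8.93% of all genes). These were the nucleotide sugar transporters Slc35d1 and Slc35d2, and the same 2 were lower in the 4-week transplant than at 8 weeks (7.8%). Ugdh, which makes UDP-glucuronate, ranged only from 2.17 to 3.78 over the 5 arrays. Of 8 genes for the supply of activated sulfate, 4 were higher at 8 weeks than at P0 and 4 lower in the 4-week transplant than at 8 weeks, among them Papss2, which makes the sulfate donor (0.18, 2.26 and 5.37 in the kidneys, 1.72 and 1.71 in the transplants). Of 6 listed genes for enzymes that split off glucuronate or sulfate, 2, Arsb and Arsg, were higher at 8 weeks than at P0 (8.93%). Whether these enzymes act on products of the conjugation enzymes was not tested. Only 1, Arsg, was lower in the 4-week transplant than at 8 weeks (7.8%).

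Of 12 measured export carriers, 8 were at least 4-fold higher at 8 weeks than at P0 (8.93% of all genes). In the 4-week transplant 6 were lower (7.8%) and 3 higher (11.7%) than at 8 weeks. Abcc2, the apical conjugate pump, was dim at E13.5 (-8.07) and had levels of -3.00 at P0, 2.13 at 8 weeks, and -4.54 and -3.94 in the transplants. Abcc3, a basolateral conjugate pump, had levels of -2.92, -0.96 and -2.10 in the kidneys and 0.08 and 1.04 in the transplants. The 2 pumps thus had opposite orders between the adult kidney and the transplants. Abcb1b, a drug pump that is also abundant in mouse adrenal cortex, stood at -2.45 in the 2-week and 3.16 in the 4-week transplant.

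NRF2 is the regulator of many glutathione enzymes. Of 12 genes outside these families known as its targets, 3 (Aox1, Ephx1 and Me1) were at least 4-fold higher in the 4-week transplant than at P0. None was lower. The shares of all genes were 8.65% higher and 4.35% lower. Aox1, aldehyde oxidase, was dim at E13.5 and 8 weeks and stood at -5.66 at P0 and -0.29 and 0.77 in the transplants. Nqo1, a quinone reductase widely used as a readout of NRF2, had levels of -3.08, -2.30 and 0.51 in the kidneys and -1.65 and -1.18 in the transplants, so it stood below the adult kidney. Among the regulators, Hnf4a, which drives liver and proximal tubule genes, was at least 4-fold lower in both transplants than at P0. Hnf4a had levels of -2.55, 3.71 and 6.33 in the kidneys and 0.30 and -0.91 in the transplants. Cebpb, a factor of fat and inflammatory cells, had levels of -0.68, 1.53 and 1.71 in the kidneys and 2.40 and 3.87 in the transplants.

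Promoter windows of RefSeq (250 bases before to 50 after the start, GRCm38.p6) were matched to 47 of the 55 enzymes, with 58 windows, and searched on both strands. The HNF4 core CAAAGT was present in 22.4% of these windows, against 14.4% of all 32851 windows, the TATA box TATAAA in 17.2% (13.6%), the dioxin response core GCGTG in 19% (32.4%) and the NRF2 core TGACNNNGC in 6.9% (12.4%). The NRF2 core occurred at Gsta3, Gstm5, Gstm7 and Mgst1. A match here is a description of letters, and no match says only that these letters are not in the window.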

How the data were processed

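The deposited scanner files of the 5 single-colour arrays hold spot intensity after background subtraction and detrending, per the file headers, made with Agilent Feature Extraction 10.7.3.1, per the submitters' processing notes. Flags per spot were also deposited. The authors' gene table holds log2 values centred on each gene's median. Of its member values, 99.3% were within 0.01 of unshifted log2 intensities. Groups were taken from the sample titles.

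From these, log2 intensity relative to each array's 75th percentile was computed. Spots flagged as outliers on any array were dropped, spots of a probe averaged, and the brightest probe stood for its gene. On a dim array the bound was the gene's own value or the array's lowest signal well above background, whichever was higher. Genes dim on both arrays were not compared. Of 24562 genes, 24553 had a value. The steps were tested on simulated data.

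The members, the 8 pathway and 16 marker lists (185 genes matched, 1 not) and the rule for genes described in full (widest range in each family, or at least 4-fold apart between transplants or from all kidneys) were chosen with earlier results of these data known. Alternatives were normexp background correction (limma 3.58.1, offset 50) with and without negative controls, the authors' table, quantile normalization, averaging of probes, other filters and a 2-fold threshold. The number of arrays limits the precision. The grid is on mm9, so coordinates are given only for RefSeq promoters. Some genes and a motif of the lists are not reported here.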

Additional observations from a re-analysis of the deposited data

Results flagged for a closer look

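For 5 enzymes the later transplant differed from the earlier one at least 4-fold in one direction and the adult from the newborn kidney at least 4-fold in the other. Each direction rests on 2 arrays, and the difference between the 2 contrasts was not tested. Mgst2 was 4.21 log2 units higher in the 4-week than in the 2-week transplant and at least 2.80 units lower at 8 weeks than at P0 (a difference of -2.80). Ugt2b36 differed by -2.86 between the transplants (a bound; -1.43 after normexp correction) and by 6.14 between the kidneys. Ugt2b37 differed by -3.18 and 6.15, Ugt2b38 by -3.21 and 7.25, and Ugt2b5 by -3.22 and 5.49. These were 5 of 40 enzymes compared in both contrasts (12.5%), against 76 of 16978 genes (0.448%). The 4 Ugt2b genes are near neighbours and may share probe signal, so they do not count as 4 separate cases. The promoter windows of Ugt2b5, Ugt2b37 and Ugt2b38 are alike (79.6% to 89.6% identical), and that of Ugt2b36 less so (62.8% to 64%).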

How the results depend on the processing

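The authors' table, quantile normalization, averaging a gene's probes and lifting the filter on dim probes moved none of the 12 counts of enzymes past 4-fold by more than 1.5 times. Normexp correction fitted a mean background of -992 for E13.5 and of 20.7 to 27.5 for the others, and changed the comparisons with that array most: at P0 against E13.5 it left 6 enzymes higher and 2 lower, and turned Sult1b1 to -0.07 and Ugt8a to -0.77; in the 2-week transplant against E13.5 it left 8 higher and 3 lower. It also left 1 lower at 8 weeks against P0 and 3 lower in the 4-week against the 2-week transplant. With negative controls, normexp left 1 lower at 8 weeks against P0, 0 lower in the 2-week transplant against E13.5 and 3 lower between the transplants. Genes above background on both arrays only, which removes all bounds, gave 7 higher at P0 against E13.5, 1 lower at 8 weeks against P0, 10 higher and 0 lower in the 2-week transplant against E13.5, and 2 higher in the 4-week transplant against 8 weeks. A 2-fold threshold gave 26 higher at P0 against E13.5, 5 lower at 8 weeks against P0, 14 lower in the 4-week transplant against P0, and 10 higher against 8 weeks and 13 higher against the 2-week transplant. Among differences of at least 4-fold in the enzymes described in full, the 2 named above changed sign and 0 others did under these settings. The authors' table puts the median difference of all genes at -0.46 at 8 weeks against P0, -0.53 at 8 weeks against E13.5 and 0.49 in the 2-week transplant against 8 weeks, an offset that all its differences share. Single arrays limit every comparison, and slides those between slide 1 and slide 2. Dim probes limit the Ugt and Sult genes most, since 12 of 55 enzymes gave no level.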
